A study of Drosophila melanogaster with 24 samples.

Results

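The 10 genes described here encode ligands, receptors and signal transducers of the activin and bone morphogenetic protein (BMP) pathways of Drosophila melanogaster. They were chosen by name, with earlier results of these data known, and are 10 of the 15339 genes counted: the ligands daw and dpp, the type I receptors babo, tkv and sax, the type II receptors put and wit, and the Smads Smox, Mad and Med. Of the other genes of these pathways, 26 were followed as a second list, and 24 of them had enough counts to be tested.

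Both pathways belong to the transforming growth factor beta family. A secreted ligand brings together type I and type II receptor kinases at the cell surface, the type II receptor activates the type I receptor, and the type I receptor phosphorylates a Smad, which enters the nucleus with the shared partner Medea (Med) and regulates transcription. In flies the activin branch runs through Baboon (babo) and Smox, and the BMP branch through Thickveins (tkv) or Saxophone (sax) and Mad. Activin signalling through Baboon is known for its part in timing neural fates in the mushroom body, and BMP signalling for its part in growth, patterning and synapse formation.

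Neuroblasts are stem cells that make the neurons and glia of the brain. RNA came from 2 of their lineages, the antennal lobe (AL, the first olfactory relay) and the mushroom body (MB, a centre for olfactory memory), in 8 groups of 3 libraries: AL at 24, 36, 50 and 84 h after larval hatching, and MB at 24, 50 and 84 h after larval hatching and at 36 h in the pupa. Per the labels, every group came from animals raised at 25 °C and matched to within 2 h of age, each library pooled about 100 GFP-positive cells taken by a robotic sorter from 30 digested brains, and the RNA was amplified before library construction. The sources used here give neither the fly strain nor the driver of the GFP label, nor whether the 3 libraries of a group were dissected separately, so p-values measure the spread among the libraries, which may be technical. In pools of cells, fewer cells that use a gene and less of its RNA per cell cannot be told apart.

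Gene counts totalled 6.06 to 9.27 M (mega-counts) per AL library and 3.15 to 5.83 M per MB library, so MB values carry more counting error, and the part of this depth difference in results between lineages was not tested. The age labels were checked with Imp and Syp, the genes of the series title. In AL, Imp averaged 32410, 27480, 17650 and 348 counts-per-million (CPM) and Syp 1419, 4774, 15700 and 28830 CPM at 24, 36, 50 and 84 h. In MB, Imp averaged 11280, 9179, 4093 and 590 CPM and Syp 1170, 1625, 5750 and 10660 CPM at 24, 50 and 84 h and in the pupa. The 7 neuroblast markers had counts in every group and summed to 2600 to 5441 CPM per library. The 8 neuron markers summed to 394 to 542 CPM in AL and 350 to 666 CPM in MB, and the 8 glial markers to 389 to 695 CPM in AL and 356 to 627 CPM in MB, although the defining glial gene repo was at most 6.47 CPM and had counts in 20 of the 24 libraries. The 6 haemocyte markers summed to at most 80.2 CPM and the 5 fat body markers to at most 26.9 CPM.

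Of the 10 genes, the receptor genes babo and tkv and the Smad gene Mad carried most of the differences. The babo level fell with age in both lineages and was higher in AL than in MB. The tkv level fell with age in MB, whereas in AL it was high at 36 and 50 h and low at 24 and 84 h. Mad was higher in AL than in MB and rose in AL by 84 h. The genes sax, Med, Smox, daw, dpp and wit passed the threshold in none of the comparisons under the main test, the quasi-likelihood test of edgeR at an adjusted p of 0.05 (Benjamini-Hochberg, over 10324 genes).

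Over the 4 ages of AL, 4 of the 10 genes changed (babo, tkv, put and Mad), beside 15.3% of all genes tested. Over the 4 ages of MB, 2 of 10 changed (babo and tkv), beside 17.7% of all genes. At 84 h against 24 h in AL, 1 gene was higher (Mad; 5.67% of all genes) and 1 lower (babo; 6.7% of all genes), and the median log2 fold change was -0.29 over the 10 genes and -0.02 over all genes. At 84 h against 24 h in MB, none was higher (5.81% of all genes) and 2 were lower (babo and tkv; 8.63% of all genes), with medians of -0.15 and 0.05. In the pupal MB against 84 h, none was higher (0.726% of all genes) and 1 was lower (tkv; 1.88% of all genes), with medians of -0.35 and -0.02. With AL set against MB over the 3 ages that both lineages have, 2 were higher (Mad and babo; 11.2% of all genes) and 1 lower (tkv; 10.7% of all genes), with medians of 0.03 and -0.02.

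**Figure D1:**
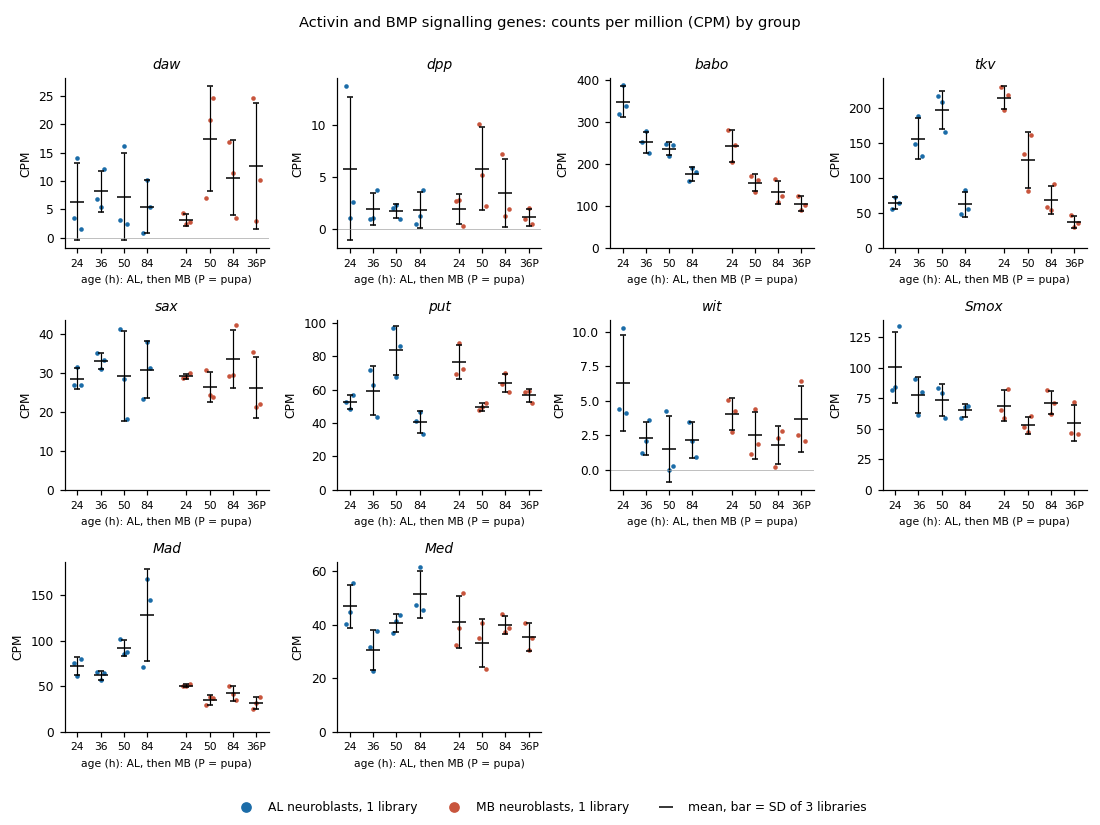
Counts-per-million (CPM, y axis) of each of the 10 genes in every library, by age in hours (x axis, AL left in blue, MB right in red, P for pupa); lines are means and bars the SD of 3 libraries. In AL, babo lies between 159 and 192 CPM at 84 h, below the 318 to 389 CPM at 24 h, and tkv peaks at 36 and 50 h, whereas in MB tkv is highest at 24 h.

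The ligand genes and wit were the least abundant of the 10. Per length, daw had a median of 4.5 transcripts-per-million (TPM) over the 24 libraries and dpp 0.95 TPM, against 91.9 TPM for babo. dawdle (daw, FBgn0031461, chromosome 2L from 2808321 to 2812147, plus strand; all positions are of the dm3 build) encodes an activin-like ligand. The MB libraries had 4.32, 2.35 and 2.85 CPM (24 h), 7.1, 20.8 and 24.7 CPM (50 h), 16.8, 11.5 and 3.57 CPM (84 h), and 24.8, 3.03 and 10.2 CPM (pupa) of daw. All 3 MB libraries at 50 h lay above those at 24 h, but the spread at the later MB ages was several times that at 24 h. Between these 2 groups, 20.3% of all tested genes were apart in one direction or the other. Its log2 fold change at 50 h against 24 h in MB was 2.45 ± 0.90 (SE) with an adjusted p of 0.15 in edgeR, and it was called in 2 of 7 alternative settings, with no filter on low counts and with only the compared groups in the fit. In AL, daw ranged from 0.897 to 16.2 CPM and the groups overlapped. decapentaplegic (dpp, FBgn0000490, chromosome 2L from 2455039 to 2459823, plus strand) encodes the main BMP ligand of the fly. It had at most 13.7 CPM, in 1 AL library at 24 h whose 2 fellow libraries had 1.07 and 2.57 CPM, and 0.237 CPM (1 count) in 1 MB library at 24 h. For dpp, no group lay apart from its neighbour in the order of group means. The SE of the log2 fold changes was 0.83 to 0.90 for daw and 1.04 to 1.08 for dpp in single comparisons of 2 groups.

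baboon (babo, FBgn0011300, chromosome 2R from 4839846 to 4850301, plus strand) encodes the type I receptor of the activin branch. The AL libraries had 318, 389 and 339 CPM (24 h), 252, 278 and 226 CPM (36 h), 247, 218 and 245 CPM (50 h), and 159, 192 and 182 CPM (84 h). The MB libraries had 280, 204 and 245 CPM (24 h), 172, 133 and 162 CPM (50 h), 164, 111 and 124 CPM (84 h), and 124, 90.2 and 103 CPM (pupa). Every library at 84 h lay below every library at 24 h in each lineage, which 25.8% of all tested genes also did in one direction or the other in AL, and 32% in MB. In AL, babo averaged 178 ± 16.8 CPM at 84 h, against 349 ± 36.1 CPM at 24 h (SD, n = 3 each), a log2 fold change of -0.98 ± 0.16 (SE; adjusted p = 1.1e-05, edgeR). MB neuroblasts averaged 133 ± 27.8 CPM at 84 h, against 243 ± 38.1 CPM at 24 h, a log2 fold change of -0.87 ± 0.16 (adjusted p = 5.5e-05). Both falls were called without each library in turn. The test of whether the fall differed between lineages gave -0.10 ± 0.22 (adjusted p = 0.86), which does not show that the falls were equal. The difference of the pupal MB from MB at 84 h was -0.33 ± 0.16 with an adjusted p of 0.41.

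Part of the babo fall was already present at 50 h in each lineage; these steps between ages, and those given for tkv and put, were chosen after the values were seen. At 50 h against 24 h, the log2 fold change of babo was -0.56 ± 0.16 in AL (adjusted p = 0.029, beside 1.23% of all genes lower) and -0.64 ± 0.16 in MB (adjusted p = 0.012, beside 2.28% of all genes lower). The AL step lost its call without any of 5 of the 6 libraries (both of AL at 24 h other than replicate 1, and all 3 of AL at 50 h), and the MB step without MB 24 h replicate 1 or MB 50 h replicate 2. When libraries were scaled by the spike-in RNA and the recorded number of cells, the babo fall in AL by 84 h was -0.38 and was not called (adjusted p = 0.40), while the median of all genes moved to 0.59; the fall in MB was -1.10 (adjusted p = 0.0087), while the median of all genes moved to -0.18. The summed level of the 8 glial markers moved the same way as babo, with 408 ± 21.1 CPM at 84 h and 624 ± 98.6 CPM at 24 h in AL, and 403 ± 40.0 CPM at 84 h and 600 ± 30.5 CPM at 24 h in MB. Most of each sum was nrv2 and Eaat1. nrv2 had 263 ± 31.7 CPM at 84 h against 418 ± 97.5 CPM at 24 h in AL, and 199 ± 40.9 against 364 ± 35.25 CPM in MB. In MB, mean Eaat1, loco and Gs2 were lower at 84 h too. Mean repo, gcm, moody and wrapper were higher in MB at 84 h, at no more than 2.98 CPM. In MB the summed neuroblast markers were also lower, with 3250 ± 592 CPM at 84 h and 4429 ± 146 CPM at 24 h. Within that list, mean pros, wor, grh and ase were lower at 84 h. insc was higher, at 123 ± 14.8 CPM against 64.5 ± 16.9 CPM at 24 h. dpn had 490 ± 108 against 498 ± 100 CPM, and mira 271 ± 34.7 against 262 ± 39.0 CPM. The summed neuron markers were 405 ± 48.4 CPM at 84 h and 605 ± 52.7 CPM at 24 h in MB, and 463 ± 37.9 CPM at 84 h and 507 ± 34.0 CPM at 24 h in AL. In MB, mean elav, n-syb, para, futsch, cpx and Syn were lower at 84 h than at 24 h. Syt1 was higher there, at 41.1 ± 8.18 CPM against 18.55 ± 5.17 CPM, and so was mean brp. In AL, mean n-syb, Syt1, brp, para, futsch and cpx were lower at 84 h than at 24 h. elav, which held most of the sum, was higher in AL at 84 h, at 361 ± 35.2 CPM against 295 ± 6.83 CPM. Mean Syn in AL was 2.61 CPM at 84 h and 2.55 CPM at 24 h. The part of these markers in the babo result was not tested.

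babo was higher in AL than in MB over the 3 matched ages, with a log2 fold change of 0.51 ± 0.09 (adjusted p = 2e-05, edgeR), and this call held without each of the 18 libraries. By age, the difference was 0.52 ± 0.16 at 24 h (adjusted p = 0.021), 0.61 ± 0.16 at 50 h (adjusted p = 0.0066) and 0.42 ± 0.16 at 84 h (adjusted p = 0.099). Every AL library lay above every MB library at 24 and 50 h, whereas at 84 h 1 AL library with 159 CPM lay below the highest MB library with 164 CPM. Of all tested genes, 23.9% were apart between the lineages at 24 h and 27.6% at 50 h, in one direction or the other. The direction at 24 h turned under the spike-in and cell number scaling, to -0.54 (adjusted p = 0.14), where the median of all genes moved to -1.06. Without AL 24 h replicate 2, MB 24 h replicate 2 or MB 24 h replicate 3 the call at 24 h was lost. Over the matched ages the spike-in scaling gave 0.20, which was not called (adjusted p = 0.46), beside a median over all genes of -0.33. The summed neuroblast markers were 5080 ± 332 CPM in AL and 3591 ± 394 CPM in MB at 50 h. Each mean of that list was higher in AL there. At 84 h the sums were 4251 ± 482.5 and 3250 ± 592 CPM, with all means but that of insc higher in AL. At 24 h AL had the lower sum, 3967 ± 79.4 against 4429 ± 146 CPM. The part of these markers in this and the other results between lineages was not tested.

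thickveins (tkv, FBgn0003716, chromosome 2L from 5218996 to 5237358, minus strand) encodes a type I BMP receptor, and its group means had the widest range of the 10 genes on a log2 scale. The AL libraries had 56.5, 72.3 and 64.0 CPM (24 h), 149, 189 and 131 CPM (36 h), 216, 209 and 166 CPM (50 h), and 48.4, 82.8 and 56.5 CPM (84 h). The MB libraries had 230, 196 and 218 CPM (24 h), 134, 81.8 and 161 CPM (50 h), 59.1, 54.8 and 91.3 CPM (84 h), and 47.2, 29.9 and 35.5 CPM (pupa). The AL libraries at 36 and 50 h all lay above those at 24 and 84 h, while in MB the libraries at 24 h lay above all others and those of the pupa below all others. Of all tested genes, 18.9% were apart between AL at 36 and 24 h and 20.5% between AL at 84 and 50 h. In MB, 20.3% were apart between 50 and 24 h and 18.2% between the pupa and 84 h. The share in MB was 32% between 84 and 24 h and 34.1% between the pupa and 24 h. The shares for the other pairs of groups in these statements were not computed.

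In AL, tkv averaged 197 ± 27.2 CPM at 50 h, against 64.3 ± 7.93 CPM at 24 h (SD, n = 3 each), a log2 fold change of 1.62 ± 0.22 (adjusted p = 3.6e-06, edgeR; 2.47% of all genes were higher). At 84 h it averaged 62.6 ± 18.0 CPM, and the difference from 50 h was -1.66 ± 0.22 (adjusted p = 2.6e-06; 2.96% of all genes were lower). Set directly against 24 h, the level at 84 h differed by -0.04 ± 0.22 (adjusted p = 0.94). In MB, tkv averaged 68.4 ± 19.9 CPM at 84 h, against 215 ± 17.0 CPM at 24 h, a log2 fold change of -1.65 ± 0.23 (adjusted p = 6.7e-07), 3.14-fold lower. The summed neuron, glial and neuroblast markers given with babo were also lower in MB at 84 h than at 24 h, though not every marker of each list was. The part of these markers in the tkv result was not tested. The pupal MB averaged 37.5 ± 8.82 CPM, and its log2 fold change against 84 h was -0.87 ± 0.23 (adjusted p = 0.025). That last call was lost without MB 84 h replicate 3, pupal MB replicate 2 or pupal MB replicate 3, under the spike-in scaling, with limma on TPM and with only the compared groups in the fit. In the pupal MB the summed neuron markers were 597 ± 32.0 CPM, against 405 ± 48.4 CPM in MB at 84 h. The summed neuroblast markers were 3068 ± 197.5 CPM in the pupal MB and 3250 ± 592 CPM in MB at 84 h. Within that list, wor had 311 ± 56.4 CPM in the pupa against 619 ± 101 CPM, and mean pros and grh were lower too. Mean dpn, ase, mira and insc were higher in the pupa. The part of these markers in the result was not tested. MB at 84 h enters both the comparison with 24 h and the one with the pupa.

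The tkv change by 84 h differed between the lineages, with a log2 difference (the AL change minus the MB change) of 1.61 ± 0.31 (adjusted p = 0.00081, edgeR), where 2.93% of all genes had a positive difference past the threshold. It was called in all 7 alternative settings and without each of the 12 libraries of the 4 groups. At 24 h, tkv averaged 64.3 ± 7.93 CPM in AL and 215 ± 17.0 CPM in MB, a log2 fold change of -1.74 ± 0.23 (adjusted p = 3.4e-07). At 50 h the levels were 197 ± 27.2 CPM in AL and 126 ± 40.3 CPM in MB, a log2 fold change of 0.65 ± 0.22 with an adjusted p of 0.049, and this call was lost without either of AL 50 h replicates 1 and 2 or MB 50 h replicates 1 and 2. At 84 h the difference was -0.13 ± 0.22 (adjusted p = 0.83). The mean difference over the 3 ages, -0.41 ± 0.13 (adjusted p = 0.017), therefore averages ages of opposite direction, and it was lost without MB 50 h replicate 3 or MB 84 h replicate 3.

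saxophone (sax, FBgn0003317, chromosome 2R from 3694102 to 3697572, plus strand) encodes the other type I BMP receptor. Its group means lay between 26.3 CPM in the pupal MB and 33.6 CPM in MB at 84 h, and each group overlapped its neighbour in the order of means. The log2 fold change at 84 h against 24 h was 0.11 ± 0.30 in AL (adjusted p = 0.86) and 0.21 ± 0.31 in MB (adjusted p = 0.73). Over the matched ages the AL level was 0.00 ± 0.18 above the MB level on the log2 scale (adjusted p = 1.0).

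Because the 3 type I receptor genes moved differently, their shares of the summed type I receptor TPM moved as well. TPM is per length, so these levels were set side by side. It takes 1 length per gene, and differences between genes in amplification were not tested, so ratios between genes are approximate. In AL, babo made up 73.8 ± 0.11% of the sum at 24 h, then 51.6 ± 0.78% (36 h), 46.4 ± 5.30% (50 h) and 58.9 ± 4.17% (84 h; SD, n = 3). The tkv share in AL was 15.4 ± 0.46%, 36.2 ± 2.65%, 43.6 ± 3.17% and 23.2 ± 3.06% at the same ages. In MB, babo made up 45.0 ± 2.33% at 24 h, 45.5 ± 3.87% at 50 h, 49.4 ± 8.54% at 84 h and 54.5 ± 2.53% in the pupa. The tkv share in MB was 45.4 ± 1.26%, 40.7 ± 6.38%, 28.5 ± 5.34% and 21.8 ± 0.76%, and the sax share 9.69 ± 1.07%, 13.8 ± 2.56%, 22.1 ± 3.39% and 23.7 ± 2.26%. At 24 h babo TPM was 4.79 ± 0.15 times tkv TPM in AL and 0.993 ± 0.079 times tkv TPM in MB. The 3 AL libraries at 24 h had nearly the same composition, with babo shares of 73.7 to 73.9%. The summed type I receptor TPM was 151 ± 21.6 at 84 h in AL, against 222 ± 12.8 at 24 h, and 235 ± 34.4 at 24 h, 136 ± 17.1 at 84 h and 99.5 ± 17.4 in the pupa in MB. These shares follow from the levels already given and were not tested on their own.

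**Figure D2:**
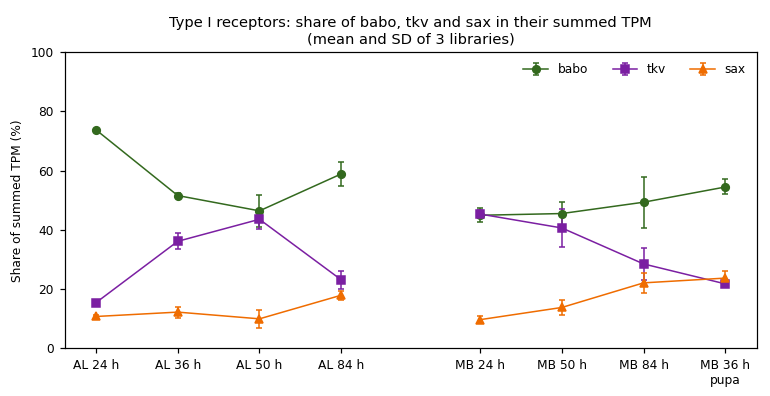
Share of babo, tkv and sax in their summed TPM (y axis, percent) in each group (x axis, AL left, MB right); points are means and bars the SD of 3 libraries. In AL at 24 h babo holds 73.8% and tkv 15.4%, whereas in MB at 24 h the shares are 45.0% and 45.4%.

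punt (put, FBgn0003169, chromosome 3R from 10446052 to 10451425, minus strand) encodes the type II receptor that both branches use. The AL libraries had 52.4, 48.5 and 56.6 CPM (24 h), 72.0, 62.9 and 43.4 CPM (36 h), 96.6, 67.3 and 86.2 CPM (50 h), and 41.5, 46.4 and 33.7 CPM (84 h). The MB libraries had 69.2, 87.9 and 72.2 CPM (24 h), 47.6, 49.4 and 52.2 CPM (50 h), 63.4, 69.9 and 58.6 CPM (84 h), and 58.4, 58.9 and 52.2 CPM (pupa). The AL libraries at 50 h lay above those at 84 h and at 24 h, and the AL libraries at 84 h lay below those of every other group except AL at 36 h. Of all tested genes, 20.5% were apart between AL at 50 and 84 h, in one direction or the other. The share was 25.8% between AL at 84 and 24 h, and 25.6% between AL and MB at 84 h. The shares for the other pairs of groups in these statements were not computed. put changed over the 4 ages of AL (adjusted p = 0.0025, edgeR) and fell by 1.04 ± 0.21 on the log2 scale at 84 h against 50 h (adjusted p = 0.0016). Over the 4 ages of MB the adjusted p was 0.15. Under the spike-in scaling neither AL result was called, with adjusted p-values of 0.051 and 0.28.

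Between lineages, put averaged 83.4 ± 14.8 CPM in AL and 49.7 ± 2.31 CPM in MB at 50 h, a log2 fold change of 0.74 ± 0.22 (adjusted p = 0.017, edgeR). At 84 h it averaged 40.5 ± 6.42 CPM in AL and 64.0 ± 5.67 CPM in MB, a log2 fold change of -0.66 ± 0.22 (adjusted p = 0.049). The 2 groups did not overlap at either age, which also held in one direction or the other for 27.6% of all tested genes at 50 h and 25.6% at 84 h. The 50 h call needed each of AL replicates 1 and 3 and MB replicates 1 and 2 of that age. The 84 h call was lost without any one of the 6 libraries and in 5 of 7 alternative settings. At 24 h the difference was -0.54 ± 0.21 (adjusted p = 0.10), and over the 3 ages together -0.15 ± 0.12 (adjusted p = 0.43).

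wishful thinking (wit, FBgn0024179, chromosome 3L from 4064152 to 4071717, minus strand) encodes a second type II receptor, known from motor neurons. It had 0 to 67 counts per library, at most 10.3 CPM. In AL at 50 h the libraries had 30, 0 and 2 counts, and a count of 0 there allows a level of up to 0.449 CPM, for counting error only. All AL libraries at 84 h, with 3.48, 2.09 and 0.906 CPM, lay below those at 24 h, with 4.42, 10.3 and 4.12 CPM, but the log2 fold change of -1.52 ± 1.03 had an adjusted p of 0.37. Of all tested genes, 25.8% were apart between these ages in one direction or the other. On the opposite strand, 2 genes overlap wit, CG32259 by 913 bases and dib by 400 bases. They had 119 and 77 counts over all libraries, against 432 for wit, and the strand setting of the counting is not given in the sources used here.

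Smox (FBgn0025800, chromosome X from 8032424 to 8036301, minus strand) encodes the Smad of the activin branch. At 84 h it had 59.1, 67.8 and 68.7 CPM in AL, against 82.2, 84.6 and 134 CPM at 24 h. The libraries of both ages lay apart, as did those of 25.8% of all tested genes in one direction or the other. The log2 fold change was -0.62 ± 0.22 with an adjusted p of 0.058 in edgeR, whereas DESeq2 called this fall. In MB the difference between 84 and 24 h was 0.05 ± 0.22 (adjusted p = 0.92), and the difference between the lineages in this change was -0.67 ± 0.32 (adjusted p = 0.25). Over the matched ages AL was 0.29 ± 0.13 above MB on the log2 scale (adjusted p = 0.10).

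Mad (FBgn0011648, chromosome 2L from 3146452 to 3159643, minus strand) encodes the Smad of the BMP branch, which tkv and sax phosphorylate. The AL libraries had 75.1, 61.4 and 80.4 CPM (24 h), 65.3, 56.8 and 64.7 CPM (36 h), 102, 85.6 and 88.1 CPM (50 h), and 71.3, 168 and 145 CPM (84 h). The MB libraries had 49.9, 49.9 and 52.5 CPM (24 h), 29.0, 38.4 and 37.1 CPM (50 h), 50.9, 41.0 and 34.9 CPM (84 h), and 25.2, 31.3 and 38.4 CPM (pupa). Every AL library, at any age, lay above every MB library. At 24, 50 and 84 h, 23.9%, 27.6% and 25.6% of all tested genes were apart between the lineages in one direction or the other. The share over all ages together was not computed.

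Over the 3 matched ages Mad was 2.25-fold higher in AL than in MB, a log2 fold change of 1.17 ± 0.14 (adjusted p = 5.5e-09, edgeR), called in all 7 alternative settings and without each of the 18 libraries. The difference was 0.51 ± 0.24 at 24 h (adjusted p = 0.17), 1.40 ± 0.24 at 50 h (adjusted p = 3.8e-05) and 1.60 ± 0.24 at 84 h (adjusted p = 4.3e-06). Within AL, Mad averaged 128 ± 50.7 CPM at 84 h, against 72.3 ± 9.80 CPM at 24 h, a log2 fold change of 0.83 ± 0.23 (adjusted p = 0.012). The spread at 84 h was wide, since replicate 1 had 71.3 CPM and so lay within the range at 24 h. The call was lost when replicate 2 at 24 h, or replicate 2 or 3 at 84 h, was left out, at log2 fold changes of 0.58 to 1.12 over the 6 fits that each left out 1 library. In MB the difference between 84 and 24 h was -0.26 ± 0.24 (adjusted p = 0.53). The test of the difference between these changes gave 1.09 ± 0.33 (adjusted p = 0.047), and this call was lost in 4 of 7 alternative settings and in 9 of 12 fits that each left out 1 library, namely any but AL 24 h replicate 3, AL 84 h replicate 1 and MB 84 h replicate 1.

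Medea (Med, FBgn0011655, chromosome 3R from 27436768 to 27440922, plus strand) encodes the Smad that both branches share. Its group means lay between 30.7 CPM in AL at 36 h and 51.5 CPM in AL at 84 h. The log2 fold change at 84 h against 24 h was 0.14 ± 0.26 in AL (adjusted p = 0.80) and -0.04 ± 0.26 in MB (adjusted p = 0.96). AL was 0.28 ± 0.15 above MB over the matched ages (adjusted p = 0.19). In the pupal MB against 84 h, the difference was -0.17 ± 0.26 for Med, -0.41 ± 0.24 for Mad and -0.18 ± 0.21 for put. The 8 members other than tkv and babo had adjusted p-values of 0.58 to 0.97 in that comparison.

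The calls of the 10 genes between AL and MB were also counted at each age, and differences between ages in these counts were not tested. At 24 h, 1 was higher (babo; 4.75% of all genes) and 1 lower (tkv; 6.1% of all genes). At 50 h, 4 were higher (babo, tkv, put and Mad; 6.39% of all genes) and none lower (4.94% of all genes). At 84 h, 1 was higher (Mad; 4.42% of all genes) and 1 lower (put; 3.25% of all genes). The median log2 fold change of the 10 genes and of all genes was 0.52 and 0.01 at 24 h, 0.38 and -0.01 at 50 h, and -0.13 and -0.04 at 84 h. The difference between the lineages in the change from 24 to 84 h passed the threshold for 2 of the 10, tkv and Mad, both with the higher change in AL (2.93% of all genes), with medians of -0.11 and -0.04.

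**Figure D3:**
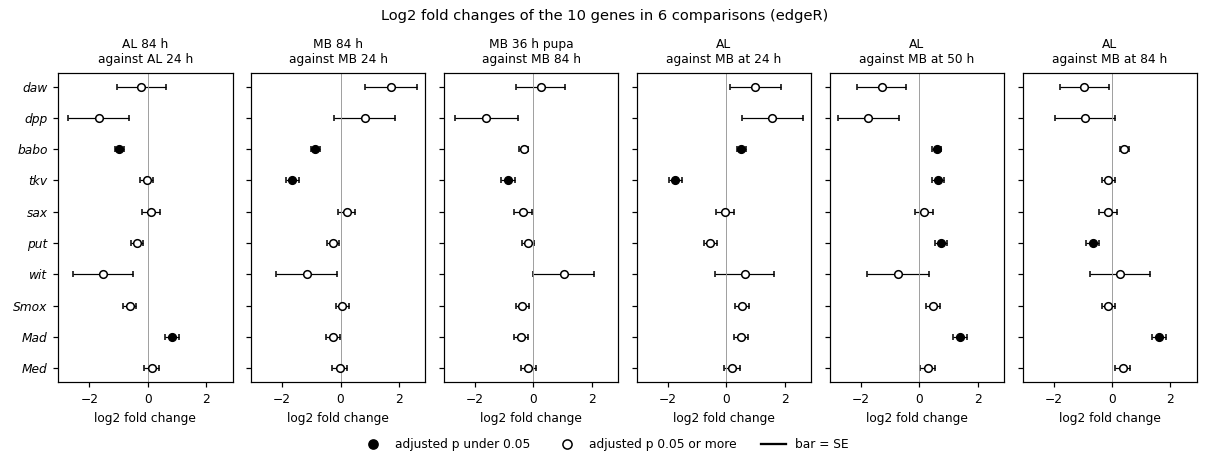
Log2 fold changes (x axis) of the 10 genes (rows) in 6 comparisons (panels), with SE bars; filled points have an edgeR adjusted p under 0.05. The tkv point lies at -1.65 for MB at 84 h against 24 h and near 0 for AL, and Mad lies at 1.60 for AL against MB at 84 h.

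At 84 h against 24 h in AL, 4 of the 24 tested genes of the second list were higher and 1 lower, beside 5.67% and 6.7% of all genes, and the median log2 fold change was -0.20 over the 24 genes. Those higher were brk, dally, dlp and Dad. brinker (brk) encodes a repressor that Dpp signalling silences in other fly tissues, and it had 106, 140 and 168 CPM at 84 h, against 28.7, 29.9 and 26.1 CPM at 24 h. Its log2 fold change was 2.29 ± 0.23 (adjusted p = 2.3e-10, edgeR). All 3192 bases of brk lie within CG1677 on the opposite strand, which had 3.99 times its counts, so reads of these 2 genes may not have been told apart. The cell surface glypicans dally and dlp, which carry Dpp, had log2 fold changes of 2.06 ± 0.40 (adjusted p = 0.00019) and 1.04 ± 0.18 (adjusted p = 4.5e-05).

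Dad, the inhibitory Smad and in other tissues a target of Mad, had 25.7, 136 and 129 CPM in AL at 84 h, against 9.47, 7.99 and 16.1 CPM at 24 h. All libraries at 84 h lay above those at 24 h, and 25.8% of all tested genes were apart in one direction or the other. Replicate 1 at 84 h lay far below its fellows, and it was also the AL library at 84 h with the least Mad. That rests on 1 library, and a link between the 2 genes was not tested. The log2 fold change of Dad was 3.11 ± 0.83 (adjusted p = 0.019), and the call needed each of replicates 1 and 2 at 24 h and 2 and 3 at 84 h. The lower gene was Snoo, a Ski and Sno family cofactor of Smads, at -0.63 ± 0.21 (adjusted p = 0.039). That call needed each of replicates 2 and 3 at 24 h and 1 and 2 at 84 h.

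In MB at 84 h against 24 h, 2 of 24 were higher, beside 5.81% of all genes, and 5 lower, beside 8.63%, with a median log2 fold change of -0.06 over the 24. The lower genes included shn, the zinc finger partner of Mad and Med, with 205, 138 and 251 CPM at 84 h, against 748, 590 and 613 CPM at 24 h. Its log2 fold change was -1.72 ± 0.18 (adjusted p = 6.6e-09, edgeR). Snoo was lower by a log2 fold change of -1.71 ± 0.21 (adjusted p = 3.7e-07) and nmo, the kinase Nemo that phosphorylates Mad, by -1.14 ± 0.17 (adjusted p = 3.4e-06). dally was lower at -1.16 ± 0.38 (adjusted p = 0.032), a call lost without any 1 of 5 libraries (all but MB 24 h replicate 1). Higher genes were vestigial (vg, a Dpp target in the wing), at 1.94 ± 0.46 (adjusted p = 0.0023), and short gastrulation (sog, a secreted antagonist of Dpp).

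sog had 54.5, 23.8 and 44.5 CPM in MB at 84 h, against 2.70, 3.00 and 10.4 CPM at 24 h, a log2 fold change of 2.95 ± 0.62 (adjusted p = 0.0021, edgeR). In the pupal MB it had 225, 208 and 188 CPM, and all 3 values lay above every library of the other groups. Of all tested genes, 18.2% were apart between the pupal MB and MB at 84 h, and 34.1% between the pupal MB and MB at 24 h. The shares of the pupal MB against the other groups were not computed. The log2 fold change of the pupal MB against 84 h was 2.34 ± 0.56 (adjusted p = 0.025). This call was lost in each fit without 1 library except the one without pupal MB replicate 3, with log2 fold changes of 2.09 to 2.60. The AL libraries had 0.985 to 8.38 CPM of sog at all ages. sog was the 1 gene of the 24 that was higher in the pupa, and dally, dlp and tld, which encodes a protease that cuts Sog, were the 3 that were lower. Beside these counts, 0.726% of all genes were higher and 1.88% lower, and the median log2 fold change was -0.26 over the 24 and -0.02 over all genes. dally had 5.37, 1.82 and 3.52 CPM in the pupal MB, against 17.2, 18.8 and 14.1 CPM in MB at 84 h, a log2 fold change of -2.23 ± 0.42 (adjusted p = 0.00055), and dlp changed by -0.84 ± 0.18 (adjusted p = 0.0026), a call lost without MB 84 h replicate 3 or pupal MB replicate 2. tld changed by -2.23 ± 0.61 (adjusted p = 0.032), a call lost in every fit without 1 library except the one without MB 84 h replicate 3.

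**Figure D4:**
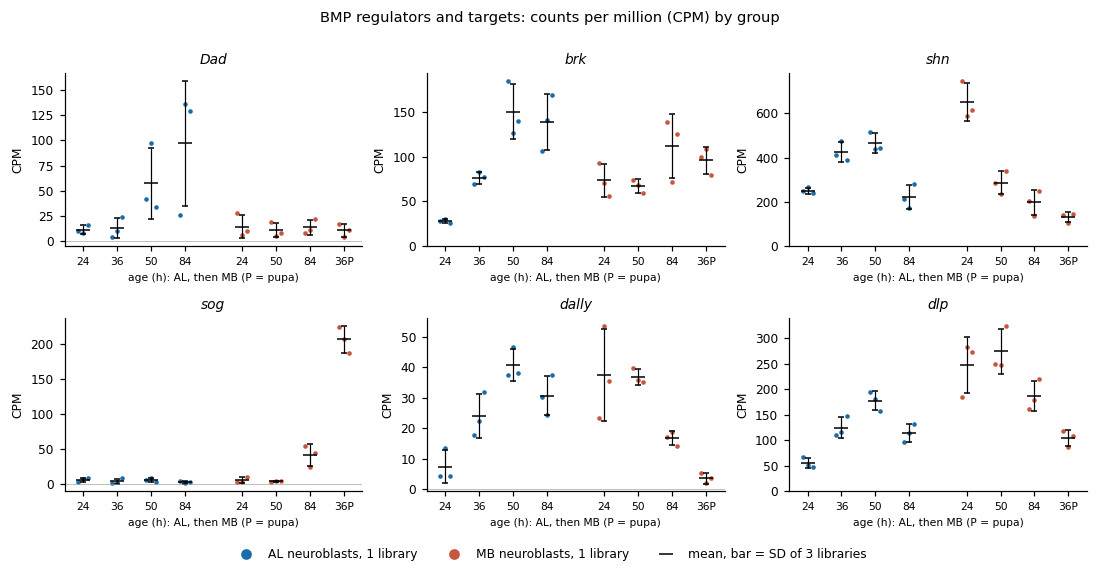
Counts-per-million (CPM, y axis) of 6 regulators and targets of BMP signalling in every library, by age in hours (x axis, AL left in blue, MB right in red, P for pupa); lines are means and bars the SD of 3 libraries. Pupal MB libraries have 188 to 225 CPM of sog, above all others, and dlp is lowest in AL at 24 h, at 48.4 to 66.7 CPM.

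Over the matched ages, 7 of the 24 genes were higher in AL than in MB, beside 11.2% of all genes, and 3 were lower, beside 10.7%. Those higher were 4 of the 5 intracellular regulators tested (Dad, Snoo, lack and nmo) and 3 of the 4 ligand genes tested (gbb, mav and myo). mav, which encodes the ligand Maverick, had a log2 fold change of 1.16 ± 0.26 (adjusted p = 0.00062, edgeR), and nmo one of 0.53 ± 0.10 (adjusted p = 5.6e-05). lack, the fly Smurf ubiquitin ligase, which degrades Mad, was higher by 0.38 ± 0.09 (adjusted p = 0.0018) and Snoo by 0.45 ± 0.12 (adjusted p = 0.006). Under the spike-in scaling, of the 7 only mav passed the threshold. The lower genes were dlp, at -1.17 ± 0.10 (adjusted p = 2.6e-12), sog and salm. salm, a target of Dpp in the wing, had 1, 0 and 0 counts in AL at 24 h, against 73, 23 and 29 counts in MB at 24 h, and 0, 0 and 1 counts in AL at 50 h, against 12, 7 and 96 counts in MB at 50 h.

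At single ages, shn and brk were called in opposite directions at 24 and 50 h, and the difference between those ages was not tested. At 24 h, shn was lower in AL than in MB by a log2 fold change of -1.37 ± 0.18 (adjusted p = 5.8e-07, edgeR) and brk by -1.38 ± 0.22 (adjusted p = 1.3e-05). At 50 h, shn was higher in AL, at 0.70 ± 0.18 (adjusted p = 0.0062), and brk too, at 1.16 ± 0.22 (adjusted p = 0.00015). dlp was lower in AL at both ages, at -2.16 ± 0.19 (adjusted p = 2.6e-12) and -0.63 ± 0.18 (adjusted p = 0.013). At 24 h, dally was lower in AL too, at -2.34 ± 0.40 (adjusted p = 3.3e-05), as was cv, at -1.26 ± 0.37 (adjusted p = 0.02), a call that needed replicate 3 of each lineage. At 50 h, nmo was higher in AL by 0.77 ± 0.17 (adjusted p = 0.0013) and lack by 0.70 ± 0.16 (adjusted p = 0.0016). In all, 1 of 24 was higher at 24 h (4.75% of all genes) and 6 were lower (6.1%). At 50 h 5 were higher (6.39% of all genes) and 2 lower (4.94%), and at 84 h 3 were higher (4.42%) and 3 lower (3.25%).

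At 84 h, the 3 higher in AL than in MB were nmo, at 0.79 ± 0.17 (adjusted p = 0.0014, edgeR), Snoo, at 0.91 ± 0.21 (adjusted p = 0.0044), and Dad, at 2.84 ± 0.82 (adjusted p = 0.043). The Dad call was lost in 5 of 6 fits that each left out 1 library, all but the one without AL 84 h replicate 1, and under the spike-in scaling none of these 3 was called. The lower genes were sog, at -3.83 ± 0.64 (adjusted p = 0.00042), dlp, at -0.72 ± 0.18 (adjusted p = 0.0058), and salm (adjusted p = 0.012). salm had 2, 3 and 7 counts in AL at 84 h, against 22, 68 and 34 counts in MB at 84 h. The dlp call needed both AL replicate 1 and MB replicate 3 of that age, and the salm call each of AL replicates 1 and 2 and MB replicate 2.

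The change from 24 to 84 h differed between lineages for 7 of the 24 genes. The AL change exceeded the MB change for 5, beside 2.93% of all genes, and fell short of it for 2, beside 1.78%. For dally the difference of the log2 changes was 3.22 ± 0.55 (adjusted p = 8.8e-05, edgeR), for shn 1.53 ± 0.25 (adjusted p = 8.2e-05), for brk 1.69 ± 0.31 (adjusted p = 0.00027) and for dlp 1.44 ± 0.25 (adjusted p = 0.00014), and each of these 4 was called without each of the 12 libraries. For sog it was -3.97 ± 0.89 (adjusted p = 0.011) and for vg -2.50 ± 0.64 (adjusted p = 0.013), which was lost without AL 24 h replicate 2 or MB 84 h replicate 3.

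**Figure D5:**
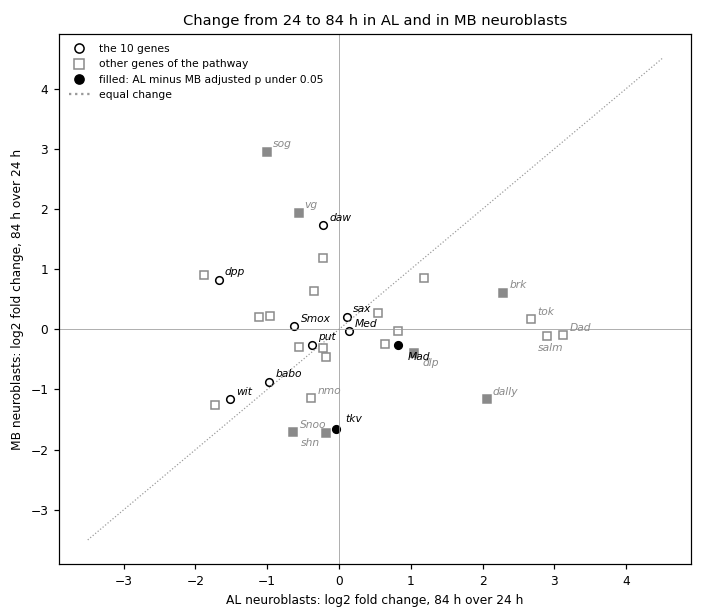
Log2 fold change from 24 to 84 h in AL (x axis) and in MB (y axis) of the 10 genes (circles) and 24 other genes of the pathway (squares); filled symbols have an edgeR adjusted p under 0.05 for the AL change minus the MB change, and the dotted line marks equal change. tkv and Mad are filled among the circles, and babo lies near the line; the AL value of salm rests on 1 count at 24 h and depends on the prior count.

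The genes whose 8 group means on a log2(CPM + 1) scale were most like those of babo, among 6437 genes, were hang (Pearson r = 0.982), tyn (0.981), Pkn (0.978), CG3626 (0.977) and ens (0.976). hang, for example, averaged 1219, 1119, 1081 and 822 CPM in AL at 24, 36, 50 and 84 h, and 1039, 738, 697 and 608 CPM in MB at 24, 50 and 84 h and in the pupa. The most opposite were DopR (-0.992), Su(var)3-9 (-0.982) and spd-2 (-0.975). DopR was low and its libraries spread widely, with 2.05 ± 1.85 CPM in AL and 5.59 ± 7.33 CPM in MB at 24 h. For tkv, whose log2 group means had a range of 2.51, against 1.72 for babo, the most alike were Ssu72 (0.976), SP1173 (0.975), LRP1 (0.968), sut4 (0.967) and shn (0.965). SP1173 averaged 145, 334, 377 and 115 CPM in AL at 24, 36, 50 and 84 h, and 372, 205, 91.7 and 61.9 CPM in MB at 24, 50 and 84 h and in the pupa. The most opposite to tkv were mRpL18 (-0.977), Tgt (-0.963) and btz (-0.958). mRpL18, at 16.8 ± 13.1 CPM in MB at 50 h, and Tgt, at 8.79 ± 5.99 CPM in AL at 36 h, also spread widely. These values describe 8 points that share their libraries and their scaling, and they are the extremes of a search over all these genes.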

How the data were processed

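RNA from 24 pools of sorted neuroblasts was measured, 3 libraries in each of 8 groups, and samples were grouped by the lineage and age in their titles. The authors deposited raw counts for each gene in each library and, in another table, TPM. The submitters' processing notes name the aligners STAR 2.4.0i and Bowtie2 2.1.0, the counter HTSeq 0.6.1p1, cutadapt 1.7.1 and CASAVA, with the builds dm3 and mm10; the sources used here do not give the annotation version or strand setting, and reads from overlapping genes on opposite strands may therefore be mixed. The deposited TPM equals the counts over 1 length per gene, scaled per library. This held to within a coefficient of variation of 0.146% over the 852 genes whose counts passed 500 in all libraries. TPM was therefore used only to set levels of different genes side by side and for the alternative test with limma. Of 15437 rows in the count table, 15339 were genes and 92 spike-in RNAs; 5 summary rows and 1 row without a name were left out. Reads of no feature were 6.88 to 11.6% and ambiguous reads 1.09 to 1.39%.

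The main test was edgeR 4.0.16 in R 4.3.3 (robust quasi-likelihood fit after TMM scaling and filterByExpr, 1 mean for each of 8 groups), two-sided and adjusted by the Benjamini-Hochberg method over all 10324 genes tested at 0.05. The common biological coefficient of variation was 0.471. Comparisons were the change over 4 ages in each lineage, 84 h against 24 h in each, the pupal MB against 84 h, the lineages against each other at each of the 3 matched ages and over them, and the AL change minus the MB change; 3 steps between ages (AL 50 against 24 h, AL 84 against 50 h, MB 50 against 24 h) were added after the values were seen. CPM are counts over TMM-scaled library totals. A count of 0 allows 3 counts, or 0.337 to 0.887 CPM by library, which covers counting error alone, because copies made in amplification were not marked.

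Alternatives were DESeq2 size factors in edgeR, no filter on low counts, DESeq2 1.42.0, scaling by spike-in counts and recorded cell numbers, limma 3.58.1 on log2(TPM + 1), the replicate number as a block, a fit of the compared groups alone, and leaving out each library. The recorded cell numbers of AL at 24 and 84 h are the same 3 values, which bears on the spike-in scaling. Spike-ins made up 0.315 to 0.945% of the gene and spike-in counts. The script was tested on simulated counts. The members and lists were chosen with earlier results of these data known. All 10 members were counted in each comparison and described where a result turned on them; of the 24 tested genes of the second list, those past 0.05 were named, at most 6 a comparison with the smallest adjusted p first, except in the tests over 4 ages and the added steps, where none was. Genes most like babo and tkv were searched among genes with at least 10 CPM in 1 group. Sequences were not used here.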

Additional observations from a re-analysis of the deposited data

Results flagged for a closer look

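The change from 24 to 84 h differed between the lineages for 2 of the 10 genes by the test of the difference itself (edgeR, adjusted over all genes), both with a positive difference, as 2.93% of all genes had; 1.78% had a negative one. For tkv the AL change exceeded the MB change by 1.61 on the log2 scale (adjusted p = 0.00081): AL averaged 62.6 CPM at 84 h, against 64.3 CPM at 24 h, while MB averaged 68.4 CPM at 84 h, against 215 CPM at 24 h. For Mad the difference was 1.09 (adjusted p = 0.047): AL averaged 128 CPM at 84 h, against 72.3 CPM at 24 h, while MB averaged 42.3 CPM at 84 h, against 50.7 CPM at 24 h. The Mad call was lost in 4 of 7 alternative settings and in 9 of 12 fits that each left out 1 library. In AL at 84 h the Mad value of replicate 1, 71.3 CPM, lay apart from 168 and 145 CPM in the others.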

How the results depend on the processing

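Scaling by spike-in RNA and cell number moved the median log2 fold change of all genes to 0.59 (AL 84 against 24 h), -0.18 (MB 84 against 24 h), -0.33 (AL against MB, matched ages), -1.06, 0.35 and -0.27 (24, 50 and 84 h), 0.81 (AL change minus MB change), 0.43 (AL 50 against 24 h), 0.16 (AL 84 against 50 h) and -0.98 (MB 50 against 24 h). It reversed babo between AL and MB at 24 h, to -0.54; the cause of this and of the other moves was not tested. Genes higher and lower then numbered 1488 and 150 (585 and 692 under TMM) for AL 84 against 24 h, 210 and 729 (600 and 891) for MB 84 against 24 h, 237 and 1785 (1153 and 1107) for matched ages, 92 and 3997 (490 and 630), 593 and 117 (660 and 510) and 81 and 254 (456 and 336) at 24, 50 and 84 h, 993 and 86 (302 and 184) for the difference of changes, 378 and 27 (255 and 127), 45 and 62 (146 and 306) and 55 and 3518 (131 and 235) for the 3 added steps. limma on log2(TPM + 1) gave 1154 and 566 for MB 84 against 24 h (median 0.24), 751 and 489 for AL, 597 and 474 for AL against MB at 24 h, 154 and 203 for the difference of changes (median -0.15), 239 and 141 for AL 84 against 50 h and 147 and 67 for MB 50 against 24 h (median 0.13).

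All-gene counts moved under spike-in scaling to 3866 (MB over 4 ages, 1829 in the main test), 939 (MB 84 against 24 h, 1491), 100 (pupa, 269), 4089, 710 and 335 (AL against MB at 24, 50 and 84 h; 1120, 1170 and 792), 1079 (difference of changes, 486), 107 (AL 84 against 50 h, 452) and 3573 (MB 50 against 24 h, 366), to 692 with DESeq2 (AL 84 against 50 h) and 214 with limma (MB 50 against 24 h). Of the 10 genes, the spike-in scaling called 2 over the ages of AL and 6 over those of MB; 0 lower for AL 84 against 24 h; 0 lower in the pupa; 1 higher over matched ages; 0 higher and 3 lower at 24 h; 0 lower at 84 h; 2 higher and 0 lower for AL 50 against 24 h; 1 lower for AL 84 against 50 h and 7 lower for MB 50 against 24 h. DESeq2 called 2 lower for AL 84 against 24 h and 2 higher for AL 50 against 24 h. limma called 0 lower in the pupa, over matched ages, at 84 h and for MB 50 against 24 h, and 1 higher for the difference of changes. With only the compared groups the counts were 0 lower in the pupa and at 84 h, 1 for the difference of changes, and 1 higher (daw) for MB 50 against 24 h, as with no filter, which gave 0 lower at 84 h. DESeq2 size factors gave 1 for the difference of changes and 1 lower for MB 50 against 24 h.

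No pairing of the libraries by replicate number was seen over all tested genes (r of deviations -0.092 to 0.069 over 84 same-numbered pairs). Such a check could miss a pairing that affects few genes. The replicate block gave 0 lower at 84 h (put, adjusted p = 0.051), 1 for the difference of changes (Mad, 0.06) and 1 lower for MB 50 against 24 h (tkv, 0.052), and ended the call of tkv between AL and MB at 50 h (0.061).

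Leaving out 1 library at a time, the all-gene counts ranged from 162 to 262 (pupa), 762 to 942 (AL against MB, 50 h), 513 to 691 (84 h), 252 to 317 (AL 50 against 24 h), 229 to 376 (AL 84 against 50 h) and 139 to 277 (MB 50 against 24 h). Of the 10 genes, 0 to 1 were higher and 1 to 2 lower for AL 84 against 24 h, 0 to 1 lower in the pupa and over matched ages, 0 to 1 higher at 24 h, 2 to 4 higher at 50 h, 1 to 2 higher and 0 to 0 lower at 84 h, 1 to 2 higher for the difference of changes, 0 to 1 lower for AL 50 against 24 h and 0 to 2 lower for MB 50 against 24 h. daw, dpp and wit had at most 108, 87 and 67 counts per library. Their libraries also spread widely, with biological coefficients of variation of 0.681, 0.798 and 0.776, beside a common value of 0.471. The part of depth in this spread was not tested.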
